A study of Chlamydomonas reinhardtii with 90 samples.

Results

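In the green alga Chlamydomonas reinhardtii, 116 genes were well expressed before heat and kept a group-mean mRNA level close to the pre-heat level at every later time point of both a 40°C and a 35°C treatment. They were chosen from 15541 genes with 10 or more reads in 9 or more of 90 libraries, themselves out of 17741 genes counted. Levels are log2 CPM, the base-2 logarithm of the counts of a gene scaled to a fixed library total, after TMM scaling (trimmed mean of M values, which sets a factor per library so that most genes are centred on no change). For each gene, d is the mean log2 CPM of a later group minus the mean of the pre-heat group of the same temperature. A member had a mean log2 CPM of 5 or more in both pre-heat groups, which is 32 CPM, and an absolute d of 0.6 or less, a factor of 1.52, in all 28 later groups. Since d chose the members, every value of d below is a description; where members past an adjusted p are counted in contrasts with pre-heat, the counts describe too and support nothing. "Stable" here means this limit and no more.

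The cultures were wild-type strain CC-1690 (21gr, mt+), grown in photobioreactors in acetate-containing TAP medium in constant light. Groups were cultures heated for 24 h at 40°C, cultures heated for 24 h at 35°C, and cultures of each set before heat at 25°C; each heated set was then returned to 25°C for 48 h. Each temperature ran in its own bioreactors, so that 40°C and 35°C groups each have their own pre-heat group. Heat 0 h is the moment at which the high temperature was reached, and recovery 0 h the moment at which 25°C was regained. Each of the 30 groups held 3 biological replicates (A, B and C). One strain in 1 medium was studied, and CPM give a share of the mRNA: cell number and RNA per cell cannot be told apart in it, so a stable share is not a stable number of molecules per cell.

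Heat forces a cell to spend its transcription on chaperones, the proteins that keep others folded, while genes of growth and photosynthesis are often turned down. Against this movement some genes keep a steady mRNA level relative to most others, and such genes are sought as internal controls for RT-qPCR. Cytosolic ribosomal proteins, built into the ribosome in fixed proportions, and subunits of mitochondrial complex I, the NADH dehydrogenase that feeds electrons into the respiratory chain, are large groups of housekeeping genes whose members tend to be transcribed in step.

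Libraries held 10872030 to 35917831 counted reads (median 22088535.5). One library stood apart: replicate A of 40°C heat 0.5 h had a TMM factor of 0.51, the lowest of the 90, and 20 members lay more than 1 (log2) from their pre-heat mean in it, against 2 or fewer in every other library. The members' spread, the ribosomal protein and control genes and the number of members at that time are given with and without it, a choice made after seeing the data. The members together held 2.77% to 5.18% of the reads of a library (median 3.53%), and the ribosomal protein members alone 2.05% to 4.07%.

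Names and roles were found for 33 of the 116 members (28.4%), and for 1673 of the 3613 genes at the same pre-heat level; the other 83 members are known here by identifier alone. The named members fell mostly into 2 groups. There were 15 genes for cytosolic ribosomal proteins and 8 for complex I, with 10 others. Members' pre-heat levels ran from 5.01 to 11.55 log2 CPM (median 5.84), against 5.01 to 13.70 (median 6.18) for the other 3497 well-expressed genes. The ribosomal protein members were at 9.89 to 11.55, the complex I members at 6.84 to 7.38, and the members with no name had a median of 5.51. CPM are not divided by gene length, so these ranges give the reads behind each value and are not compared between genes.

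The largest absolute d of a member had a median of 0.53 over the 28 groups, so most members used nearly the whole width of the limit: 85 of 116 exceeded 0.5 somewhere. For the other well-expressed genes the same measure ran from 0.60 to 11.34 (median 1.73). The largest d fell in a 40°C group for 84 members and in a 35°C group for 32, and in heat for 59 and in recovery for 57. For none of the 116 was it in the groups of 24 h or 48 h recovery. At 48 h of recovery 113 members were within 0.3 of pre-heat in both treatments. The other well-expressed genes were as near to pre-heat there. The median absolute d was 0.12 in members and in the others at 40°C, and 0.07 against 0.08 at 35°C. Of the others 98.4% (40°C) and 99.8% (35°C) were within 0.6 at 48 h, and 95.9% and 99.4% at 24 h. Just inside the limit were Cre02.g083650 (0.594), NUOS6 (0.595, below pre-heat), Cre08.g383250 (0.596, below), RPL11 (0.597) and Cre12.g533800 (0.59995). Just outside were Cre12.g516500 (0.60011), the complex I gene NUO7 (0.60015, below), Cre17.g713900 (0.604), SEC63 (0.604), a co-chaperone of protein import into the endoplasmic reticulum, and Cre05.g234850 (0.605, below). The boundary therefore separates genes whose values differ by far less than the replicate spread.

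**Figure D1:**
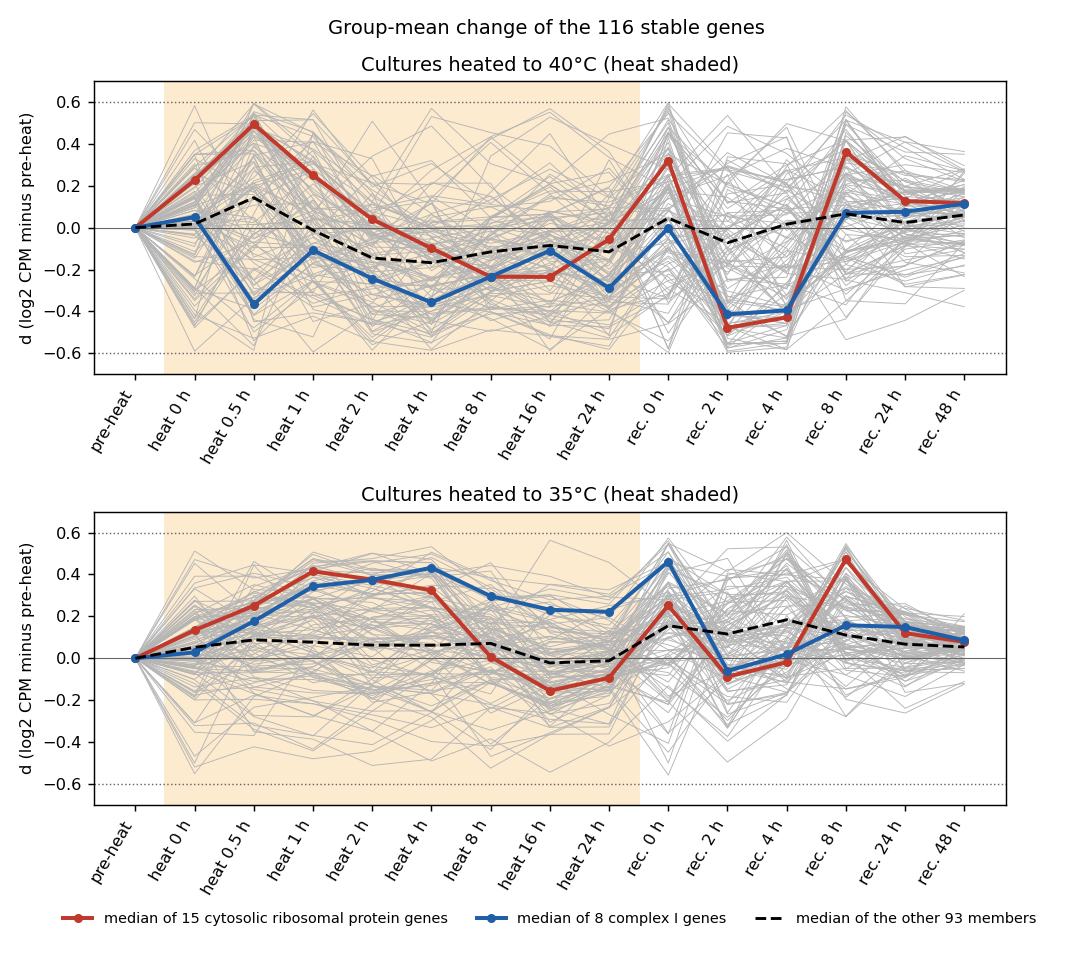
Group-mean d (log2 CPM minus pre-heat) of each of the 116 members (grey) at 14 later time points of the 40°C treatment (top) and the 35°C treatment (bottom), with medians of the 15 ribosomal protein members, the 8 complex I members and the other 93; dotted lines mark the limit of 0.6. The ribosomal median reached 0.49 at 40°C heat 0.5 h and -0.48 at 40°C recovery 2 h, while the median of the other 93 stayed between -0.17 and 0.18.

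Within the limit the time courses still had shape. At 40°C heat 0.5 h the median absolute d was 0.31, and 60 of 116 were more than 0.3 from pre-heat. Without replicate A these values were 0.20 and 39, and more members (50) were beyond 0.3 at 40°C recovery 2 h, with a median of 0.26. By library, 37 members were over 0.6 from pre-heat in replicate A, 3 in replicate B and 6 in replicate C. At 35°C heat 0.5 h the median absolute d was 0.17, with 18 members beyond 0.3. Later in 40°C heat the balance was towards lower levels: 37 of 116 had a positive d at 2 h, 27 at 4 h and 30 at 8 h, against 75, 79 and 75 at the same times of 35°C. This balance depended on the scaling: with library size alone the members' median d was -0.12, -0.05 and 0.02 at 2, 4 and 8 h of 40°C, against -0.16, -0.14 and 0.03 at 35°C. The mean d over the 8 heat groups was lower at 40°C than at 35°C for 89 of the 116 members, and for 2482 of the 3497 other well-expressed genes. It was below 0 at 40°C and above 0 at 35°C for 46 members, and the other way round for 6, against 686 and 165 of the 3497 other genes. Few members kept 1 direction: 3 lay above pre-heat and 8 below it in all 8 heat groups of 40°C, and 15 above and 8 below in all 8 of 35°C. Of the 3497 other genes, 385 lay above and 1046 below in all 8 of 40°C, and 531 above and 722 below in all 8 of 35°C.

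The member with the smallest largest d was Cre10.g443350, a gene with no name in the tables used. In 24 libraries of 40°C heat it had 33.7 to 59.4 CPM (median 46.4), against 44.6, 46.4 and 45.3 CPM in the 40°C pre-heat libraries. In 24 libraries of 35°C heat it had 44.8 to 61.9 CPM (median 48.7), against 40.6, 52.2 and 47.0 CPM in the 35°C pre-heat libraries. Heat and pre-heat libraries overlapped at both temperatures. Its d lay between -0.36 (35°C recovery 0 h) and 0.32 (35°C heat 0.5 h), with its extremes in the milder treatment, and no later library was more than 0.43 from its pre-heat mean. With library size alone its largest absolute d was 0.75, outside the limit.

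Next came Cre03.g157300 (largest absolute d 0.38), Cre01.g041450 (0.39), Cre02.g075850 (0.40), Cre02.g106550 (0.41), Cre02.g118850 (0.41), CUL1 (0.42), Cre03.g158050 (0.42), Cre01.g041550 (0.43) and Cre03.g154250 (0.43). Of these, CUL1 (Cre07.g324050), a cullin that serves as scaffold of ubiquitin ligases, is the one with a name. With library size alone, Cre03.g157300 (0.62), Cre02.g106550 (0.73), Cre02.g118850 (0.79), Cre03.g158050 (0.70) and Cre03.g154250 (0.79) were also outside the limit. CUL1 had 68.8, 82.5 and 103 CPM at 40°C heat 0.5 h and 48.5, 48.0 and 44.5 CPM at 40°C recovery 4 h, against 65.8, 57.0 and 65.3 CPM before heat. Its libraries were thus all above pre-heat early in heat and all below it in recovery, at d of 0.42 and -0.41; without replicate A its d at heat 0.5 h was 0.56. Cre02.g118850 had the widest replicate spread of the 10, a within-group SD of 0.28 on the log2 scale, and was the single member with no adjusted p under 0.05 in any of the 28 contrasts with pre-heat.

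The ribosomal protein members included RPS9, RPS14 and 2 unnamed genes annotated to the small subunit (Cre13.g573351, as S16, and Cre16.g682300), and RPL11, RPL12, RPL14, RPL19, RPL21, RPL27, RPL32, RPL34, the acidic stalk protein gene RPP2 and Cre12.g535851, annotated as L8, of the large subunit. Their largest absolute d were 0.51 to 0.60 (median 0.56). Over the 28 groups their profiles ran together: the Pearson correlation of d had a median of 0.90 over 105 pairs (0.64 to 0.98), while it was 0.14 over 3403 pairs of members with no name. These are descriptions across 28 groups that share libraries, 2 pre-heat groups and scaling factors.

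The median d of the 15 genes at 40°C was 0.23, 0.49, 0.25, 0.04, -0.10, -0.23, -0.23 and -0.06 over the 8 heat times in order, which ran from 0 h to 24 h. In recovery from 40°C it was 0.32, -0.48, -0.43, 0.36, 0.13 and 0.12 over the 6 times from 0 h to 48 h. All 15 lay above pre-heat at heat 0 h, 0.5 h and 1 h and at recovery 0 h, and all 15 below it at recovery 2 h and 4 h. At 35°C the median was 0.41 at heat 1 h, -0.16 at 16 h and 0.47 at recovery 8 h. The medians were above pre-heat from heat 0 h to 2 h and below it at 16 h and 24 h at both temperatures, while at recovery 2 h from 35°C the median was -0.09. Some of these signs depended on scaling and libraries. With library size alone the medians at 40°C heat 0 h, 0.5 h and 24 h were -0.13, -0.10 and 0.15, and -0.01 at 35°C heat 0 h. Without replicate B those at 40°C heat 16 h and 24 h were 0.008 and 0.027. Without replicate A those at 40°C heat 2 h and 35°C heat 24 h were -0.12 and 0.02.

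RPS9, a protein of the small subunit, shows the course in single libraries. It had 7591, 4006 and 3267 CPM at 40°C heat 0.5 h and 2143, 2173 and 2266 CPM at 40°C recovery 4 h, against 3139, 3514 and 3214 CPM in the 40°C pre-heat libraries. The 3 recovery libraries lay below every pre-heat library, whereas at heat 0.5 h replicate A was far above and the other 2 were near pre-heat. At 35°C recovery 8 h it had 3377, 4102 and 4543 CPM, against 3484, 2717 and 2174 CPM before heat, and the groups overlapped.

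RPL14, of the large subunit, had 3563, 1868 and 1346 CPM at 40°C heat 0.5 h, against 1368, 1661 and 1267 CPM before heat. RPS14 had 4339, 1715 and 1538 CPM there, against 1416, 1964 and 1343 CPM before heat. In both genes replicate A was the library far above pre-heat at that time, where d was 0.55 and 0.54. RPS14 also had 1673, 554 and 1185 CPM at 40°C heat 16 h, its lowest group mean (d -0.59), where replicate B was lowest and is also the library with fewest reads.

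Taken by library, the median departure of the 15 ribosomal members from pre-heat at 40°C heat 0.5 h was 1.29 in replicate A, 0.31 in replicate B and -0.08 in replicate C. In replicate A all 15 lay more than 1 above pre-heat. In the same 3 libraries the complex I members were at -0.40, -0.34 and -0.30. Without replicate A the median d of the 15 at 40°C heat 0.5 h was 0.11, 14 of the 15 stayed within the limit, and the number of ribosomal protein genes that met the rule was 30. Which of the 3 replicates of that time is typical was not tested. The ribosomal protein members had a wider replicate spread (within-group SD 0.20 to 0.32, median 0.23) than complex I members (0.11 to 0.15, median 0.13).

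**Figure D2:**
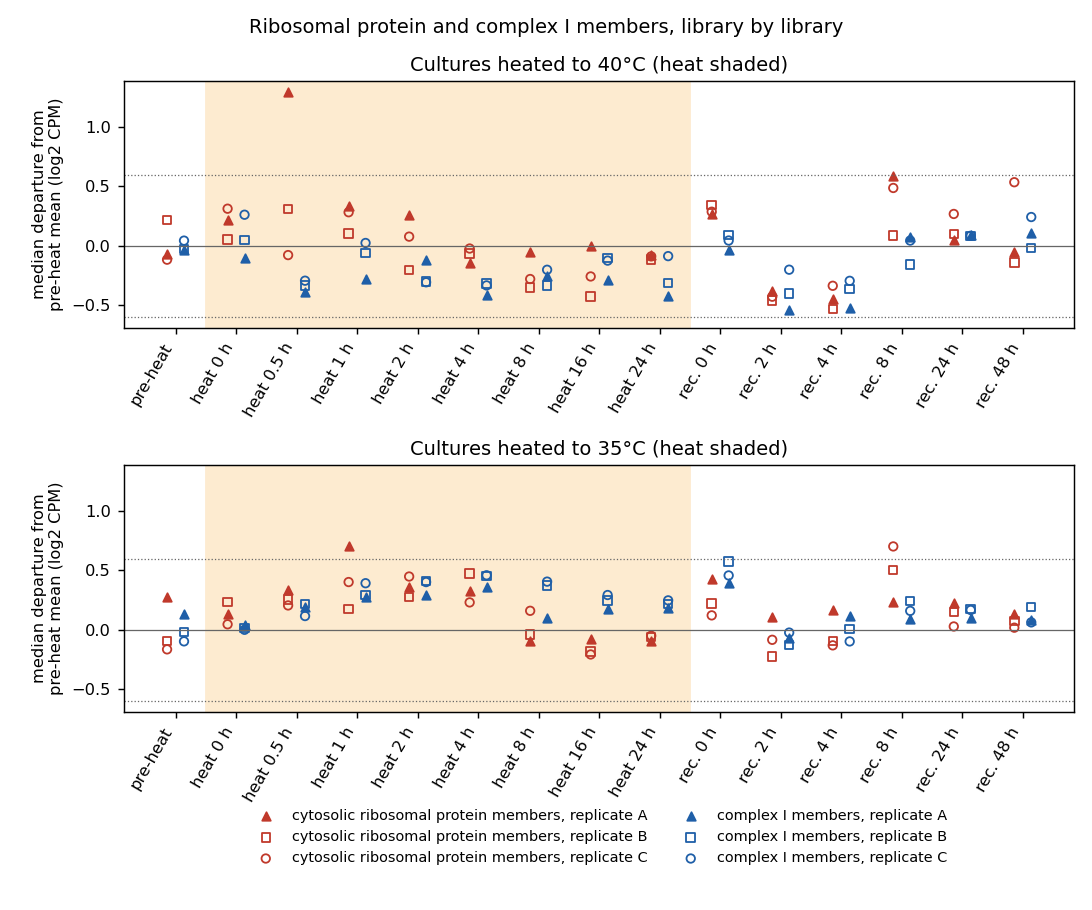
Median departure from the pre-heat mean (log2 CPM) in each library, for the 15 ribosomal protein members (red) and the 8 complex I members (blue); symbols mark replicates A, B and C, for 40°C (top) and 35°C (bottom), and dotted lines mark 0.6. Replicate A of 40°C heat 0.5 h is at 1.29 for ribosomal protein members, away from 0.31 and -0.08 in replicates B and C.

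The whole list of cytosolic ribosomal protein genes held 71 genes, 70 of them well expressed, and 15 of the 70 (21.4%) were members, against 116 of 3613 (3.21%) of all well-expressed genes. The others were mostly not far outside. The largest absolute d had a median of 0.69 over the 70 genes, and 68 of the 70 met a limit of 1. With 40°C heat 0.5 h left aside, 33 of the 70 were within 0.6 in every group, the 15 members among them. At that time 69 of the 70 had a positive d (median 0.57); by library the median departure was 1.35 in replicate A, where 68 of 70 exceeded 1, then 0.38 in replicate B and -0.01 in replicate C. Without replicate A the median d there was 0.20, and 57 of 70 were positive. A gene was called changed where its adjusted p was under 0.05, its log2 fold change was above 1 or below -1 and its mean TPM (transcript level per length, as deposited) differed by 1 or more. By edgeR's quasi-likelihood test 2 of the 70 were called in any of the 28 contrasts, while 78.6% of well-expressed genes were. These were Cre06.g249250 (1 contrast, largest d 1.10 at 40°C recovery 8 h) and Cre07.g314100 (11 contrasts, largest d -2.84 at 40°C heat 0.5 h), both named after their values were seen. Annotation also places Cre06.g249250 among snoRNP proteins of pre-rRNA processing.

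The 8 complex I members were NUO9, NUO10, NUOB8, NUOP4, NUOP5, NUOS6, Cre03.g204650 and Cre12.g555150. Complex I was split from a wider list of mitochondrial electron transport after values were seen. Their mean d over the 8 heat groups was below 0 at 40°C and above 0 at 35°C for all 8. At 35°C all 8 lay above pre-heat at heat 1 h, 2 h, 4 h, 8 h and 24 h, with medians of 0.34, 0.37, 0.43, 0.30 and 0.22, and at recovery 0 h, with a median of 0.46. At 40°C all 8 lay below pre-heat at heat 0.5 h, 2 h, 4 h, 8 h and 24 h, with medians of -0.37, -0.24, -0.36, -0.23 and -0.29. The 8 genes were again below pre-heat at recovery 2 h and 4 h (-0.41 and -0.39), where library size alone gave medians of 0.04 and 0.08. These shifts depended on the scaling in heat as well. With library size alone the medians at the same 40°C heat times were -0.96, -0.25, -0.25, -0.05 and -0.09. At 40°C heat 16 h the median was then 0.08, against -0.11 with TMM. At the 35°C heat times the medians were 0.06, 0.10, 0.17, 0.26 and 0.22 with library size alone, and 0.27 at recovery 0 h. The correlation of d between these genes had a median of 0.84 over 28 pairs, and between them and the ribosomal members 0.42 over 120 pairs.

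NUO10 (Cre12.g492300), a subunit of the complex, had 180, 174 and 181 CPM at 35°C heat 4 h, against 144, 121 and 107 CPM before heat. It had 86.2, 103 and 104 CPM at 40°C heat 0.5 h, against 126, 124 and 139 CPM before heat. Neither group overlapped its pre-heat group. NUO9 (Cre07.g327400), another subunit, had its lowest mean at 40°C recovery 2 h with 100, 106 and 134 CPM, against 165, 164 and 175 CPM before heat. At recovery 8 h from 40°C its highest library had 257 CPM. NUOS6 (Cre03.g178250) had 80.6, 84.5 and 104 CPM at 40°C recovery 2 h, all below 130, 140 and 134 CPM before heat, and its d of -0.59 there was just inside the limit.

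Of 27 well-expressed complex I genes 8 (29.6%) were members, the median of their largest absolute d was 0.77 and the highest was 1.07, in NUO5 (Cre10.g450400). None of 27 well-expressed genes of complex III, complex IV and the ATP synthase was a member. Their largest absolute d ran from 0.74 to 2.61 (median 1.57), the highest in the ATP synthase subunit gene ATP1A. At 40°C heat 1 h the median d was -0.14 for the complex I genes and -1.49 for the genes of the other complexes. At 35°C recovery 0 h it was 0.36 and 0.55. In the list of mitochondrial electron transport as a whole, 61 genes were well expressed, 8 were members and 34 were called in a contrast.

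**Figure D3:**
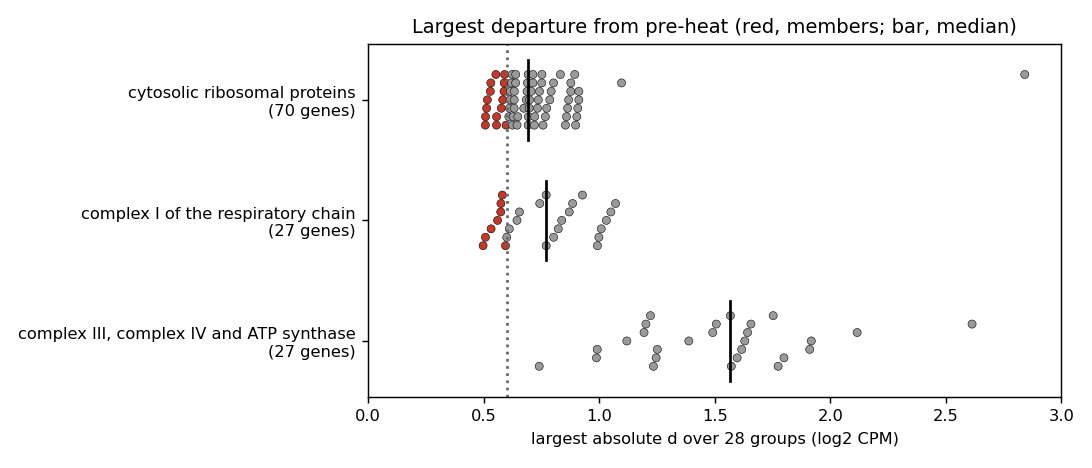
Largest absolute d over the 28 groups (log2 CPM) of each well-expressed gene in 3 lists: 70 cytosolic ribosomal protein genes, 27 complex I genes and 27 genes of complex III, complex IV and ATP synthase; red points are members, the dotted line is the limit of 0.6 and bars are medians (0.69, 0.77 and 1.57). The list of the other respiratory complexes starts at 0.74, outside the limit.

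The other 10 named members had varied roles. GSR2 (Cre09.g396252), a glutathione reductase that keeps the antioxidant glutathione reduced, had 56.4, 61.1 and 45.7 CPM at 40°C recovery 2 h, against 78.2, 83.2 and 79.5 CPM before heat. PRX3 (Cre10.g449550), a type II peroxiredoxin that removes peroxides, had 47.5, 55.0 and 58.1 CPM at 40°C heat 1 h, against 78.3, 86.8 and 76.8 CPM before heat. Both redox genes had their lowest d there, at -0.57 and -0.59, with no overlap with pre-heat. At 35°C heat 0 h to 24 h PRX3 had 65.6 to 88.0 CPM (median 77.3), against 67.5, 74.1 and 73.0 CPM before heat.

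CLPC1 (Cre02.g143307), a chaperone of the HSP100 family, was the single member in the list of chaperones, of which 52 were well expressed and 43 were called in a contrast. It had 147, 159 and 131 CPM at 40°C recovery 0 h, against 97.1, 93.9 and 98.2 CPM before heat, so that all 3 were higher (d 0.59). At 35°C heat 16 h it had 68.6, 76.4 and 69.0 CPM, against 100, 107 and 105 CPM before heat, all lower (d -0.54). At 40°C heat 0.5 h its replicates were at 135, 71.0 and 52.7 CPM, with pre-heat between them, and without replicate A its d there was -0.65, outside the limit. VPS26 (Cre09.g414200), whose product is a part of the retromer that sorts proteins between endosome and Golgi, had 99.8, 107 and 96.3 CPM at 40°C recovery 0 h, against 70.5, 72.4 and 74.3 CPM before heat.

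Among the rest, Cre12.g484150, annotated under acid phosphatases and metal handling, had the smallest within-group SD of all members (0.081), and at 40°C heat 24 h had 57.5, 57.3 and 63.0 CPM, against 85.7, 82.4 and 84.6 CPM before heat. Cre04.g227350 and Cre14.g632950, annotated as putative transcription regulators, had largest absolute d of 0.44 and 0.52. Cre09.g403900, a flagellar associated protein gene and the single member of 45 well-expressed genes in the list of cilia, had one of 0.47. Cre02.g109550, annotated to synthesis of aspartate family amino acids, had one of 0.59.

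Members with the most lasting shifts in heat had no name except CUL1. The lowest mean d over the 16 heat groups was that of Cre01.g024150 (-0.40), followed by Cre12.g494000 (-0.31) and Cre02.g075650 (-0.28). Cre01.g024150 had 48.2, 48.2 and 48.4 CPM at 40°C heat 4 h, against 71.1, 74.2 and 72.0 CPM before heat. The highest were Cre13.g574800 (0.31), Cre06.g278236 (0.24) and CUL1 (0.24). Cre13.g574800 had 67.9, 57.0 and 58.6 CPM at 40°C heat 16 h, against 37.4, 41.2 and 45.1 CPM before heat. In both genes the groups did not overlap although d met the limit.

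**Figure D4:**
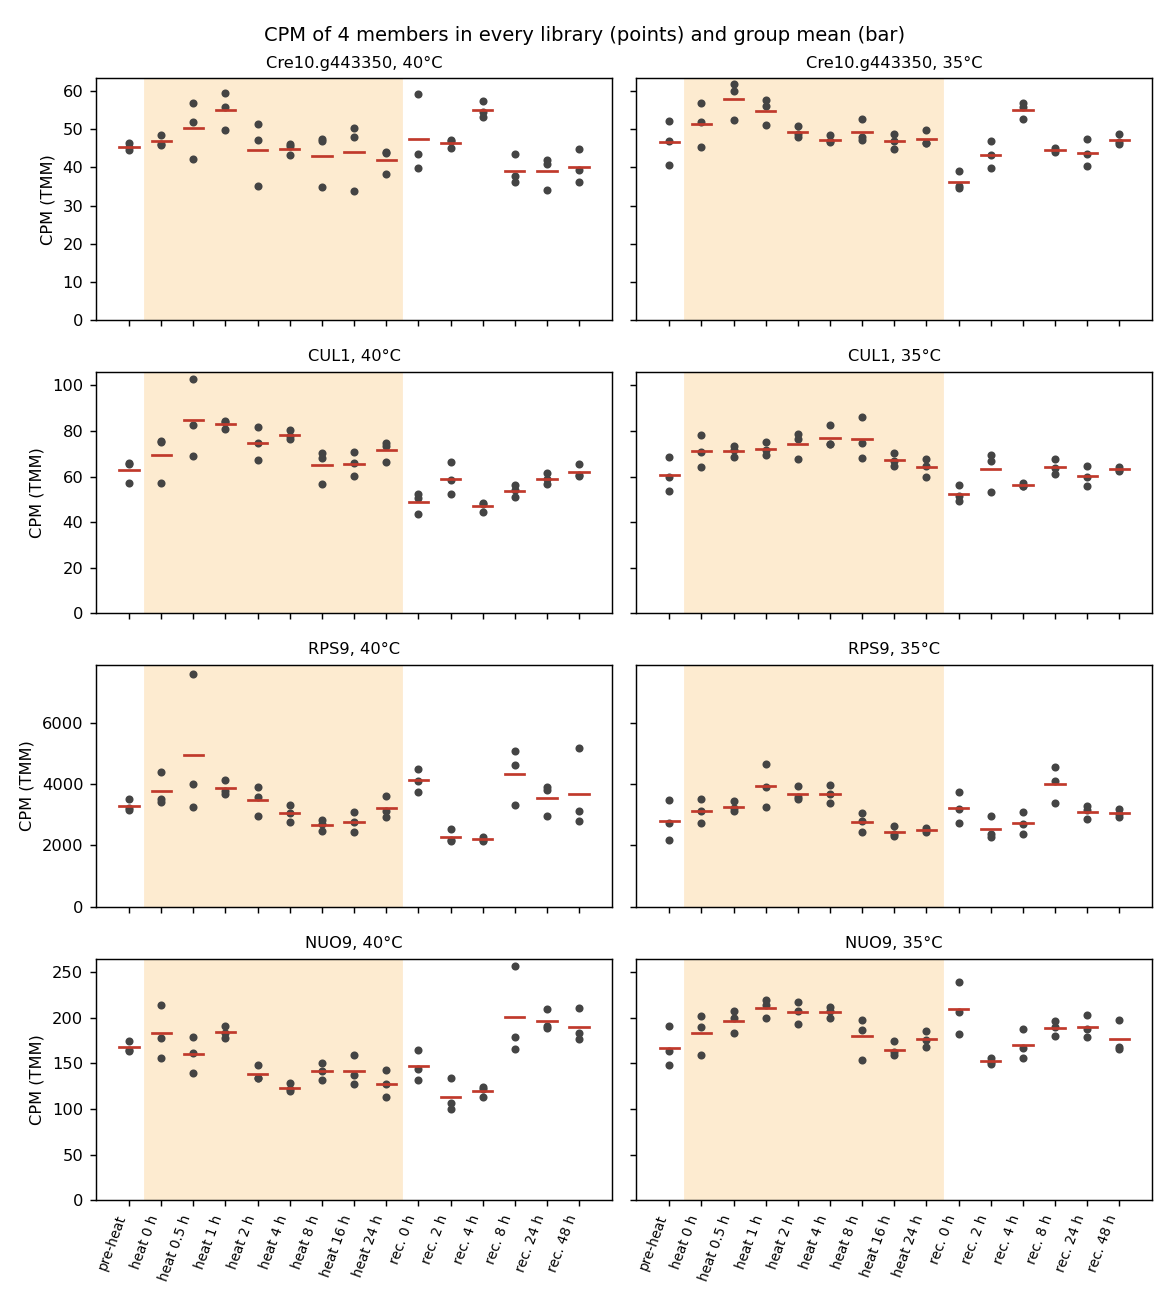
CPM after TMM scaling of 4 members in every library (points) with group means (bars), for 40°C (left) and 35°C (right): Cre10.g443350, CUL1, RPS9 and NUO9. Cre10.g443350 lies between 33.7 and 61.9 CPM in all 90 libraries, and RPS9 reaches 7591 CPM in replicate A of 40°C heat 0.5 h.

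No member was found in 10 of the 15 lists of gene functions, which are partial since names or terms were found for 4189 of the 15541 genes. They were proteasome (2 well-expressed genes), vesicle traffic (24), V-type ATPase (15), splicing and RNA processing (40), translation factors (16), aminoacyl-tRNA synthetases (18), chromatin and transcription (30), nuclear transport (2), protein kinases and phosphatases (16) and photosynthesis (152). Of the 152 photosynthesis genes 147 were called in a contrast, and their largest absolute d had a median of 3.01. All 18 aminoacyl-tRNA synthetase genes and 15 of 16 translation factor genes were called. These shares stand beside 78.6% called and 3.21% members among all well-expressed genes. Lists of 2 to 40 genes could hold no member at that share. Whether the 152 photosynthesis genes differed from it was not tested. Of the vesicle traffic genes 10 of 24 were called, with a median largest absolute d of 0.91. The list of ubiquitin conjugation and ligation held 1 member, CUL1, among 60 well-expressed genes, 53 of them called. In the remaining lists the called genes were 2 for proteasome, 10 for V-type ATPase, 32 for splicing, 28 for chromatin, 2 for nuclear transport and 15 for kinases and phosphatases.

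Before heat, the 40°C and 35°C cultures were compared. The difference between these pre-heat groups was not itself part of the rule. The mean of each was, both for the level required and as the baseline of d. The counts of members below are therefore not independent of how members were chosen, and how far the choice shaped them was not tested. By edgeR's quasi-likelihood test 0 of the 116 members had an adjusted p under 0.05, 0 had an unadjusted p under 0.05, and DESeq2's Wald test also gave 0 of each; over all genes 0.045% were called (7 of 15541). The log2 fold change of 40°C over 35°C pre-heat ran from -0.15 to 0.31 among members, and the lowest unadjusted p was 0.12. It was positive for 85 of 116 members, for 15 of 15 ribosomal protein members (0.10 to 0.26, median 0.22) and for 8 of 8 complex I members (median 0.05). RPS9 had 3289 ± 198 CPM in the 40°C pre-heat libraries and 2792 ± 658 CPM in the 35°C pre-heat libraries (SD, n = 3 each). These genes move together, so the 15 are not 15 independent signs. Without 35°C pre-heat replicate A the members' median log2 fold change was 0.11, against 0.05 with it, and 9 members had an unadjusted p under 0.05 but 0 an adjusted one. At unadjusted p under 0.05 there were 173 genes of 15541, and missing the threshold is no evidence that both sets were the same.

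Contrasts with pre-heat used the same differences as the rule, so their calls are given as counts alone. An adjusted p under 0.05 in at least 1 of the 28 contrasts with pre-heat was given by edgeR to 115 of 116 members; it was given to 99.5% of all genes and 99.9% of well-expressed genes. The members had a median of 5.5 such contrasts (0 to 17). In single contrasts the number was 61 at 40°C heat 0.5 h (69.5% of all genes; 36 and 64.4% without replicate A), 34 at 40°C heat 24 h (62.6%), 49 at 40°C recovery 2 h (68.2%), 15 at 35°C heat 0.5 h (38.6%) and 36 at 35°C recovery 0 h (45.2%). At recovery 24 h and 48 h of both temperatures it was 0. None of the 116 was called changed with the fold and TPM limits added, by which 68.5% of all genes and 78.6% of well-expressed genes were; their largest absolute edgeR log2 fold change was 0.73, so none could be. As the limit on d set these counts, nothing is read from them.

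Group means hide some single libraries. All later libraries lay within 0.6 of the pre-heat mean for 14 of the 116 members, and within 1 for 92. The other 24 had a library more than 1 away, 20 of them in replicate A of 40°C heat 0.5 h. The within-group SD of log2 CPM had a median of 0.15 in members (0.081 to 0.32), against 0.21 in the other well-expressed genes.

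Genes in use as internal controls were not members. CBLP (Cre06.g278222, RCK1 in the tables), the G-protein β-subunit-like polypeptide whose transcript served as RT-qPCR control for these cultures, was within 0.6 of pre-heat in 27 of 28 groups and at 0.96 at 40°C heat 0.5 h. Its departures there were 1.58, 0.65 and 0.64 in replicates A, B and C, and without replicate A its d was 0.65. Without that library CBLP was over 0.6 in 2 groups. With all libraries it was called changed in 1 contrast. RPL13 and RPL13a also had their largest d at 40°C heat 0.5 h, of 0.74 and 0.70. Their departures there were 1.54, 0.53 and 0.15 for RPL13 and 1.43, 0.44 and 0.23 for RPL13a. Without replicate A the largest absolute d of RPL13a was 0.44, inside the limit, and that of RPL13 was 0.604, just outside it. The tubulin genes, whose products build microtubules of cilia and spindle, were far outside: TUA1 had a largest d of -3.05 and TUB2 of -3.29 at 40°C heat 24 h, TUA2 of -1.95 at 40°C heat 8 h and TUB1 of -1.92 at 40°C heat 16 h. No gene with a symbol for actin, elongation factor 1 alpha or ubiquitin was found in the name tables used.

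Which genes count as stable depended on the scaling. When libraries were scaled by their size and not by TMM (library size alone), 111 genes met the rule, of which 30 were among the 116; 48 of the 111 were ribosomal protein genes and 1 was of complex I. The median d of all genes then lay between -0.60 and 0.52 over the 28 groups, at -0.60 at 40°C heat 0.5 h and 0.51 at 40°C recovery 2 h, while with TMM it lay between -0.04 and 0.06. At those times the ribosomal protein members had medians of -0.10 and -0.03 with library size alone, against 0.49 and -0.48 with TMM. The complex I members were at -0.96 and 0.04 with library size alone. The -0.10 averages unlike libraries: replicates A, B and C of 40°C heat 0.5 h held 3.41%, 2.42% and 2.05% of reads in ribosomal protein members. Before heat these were 2.65%, 3.09% and 2.51%. Without replicate A the TMM median of the ribosomal protein members there was 0.11. At 40°C recovery 8 h their median was 0.44 with library size alone and 0.36 with TMM. Their share of reads was thus nearer to pre-heat than their TMM level at recovery 2 h, but not at recovery 8 h. With DESeq2's size factors 114 genes met the rule and 104 were shared. Replicates mattered as well: without replicate A, B or C the rule gave 108, 105 and 72 genes, of which 63, 79 and 58 were shared. Of the 15 ribosomal protein members 1, 1 and 0 still met it, and of the 8 complex I members 4, 8 and 5. Without replicate A of 40°C heat 0.5 h alone it gave 153 genes, 110 shared.

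A limit of 0.6 was met by 8 of the 116 under all 8 of these choices (3 scalings or filters other than the main one, a prior count of 0.5, each replicate letter left out and the 1 library left out). They were CUL1, Cre01.g004000, Cre01.g041450, Cre01.g041550, Cre02.g075850, Cre06.g291850, Cre09.g388689 and Cre10.g466900, none of them a ribosomal protein or complex I gene. On log2(TPM + 1), which is not among these 8 choices, 0 of the 116 met the rule, and CUL1 had a largest absolute d of 0.86. Cre06.g291850, Cre09.g388689, Cre10.g466900 and Cre01.g004000 are named here after their values were seen.

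**Figure D5:**
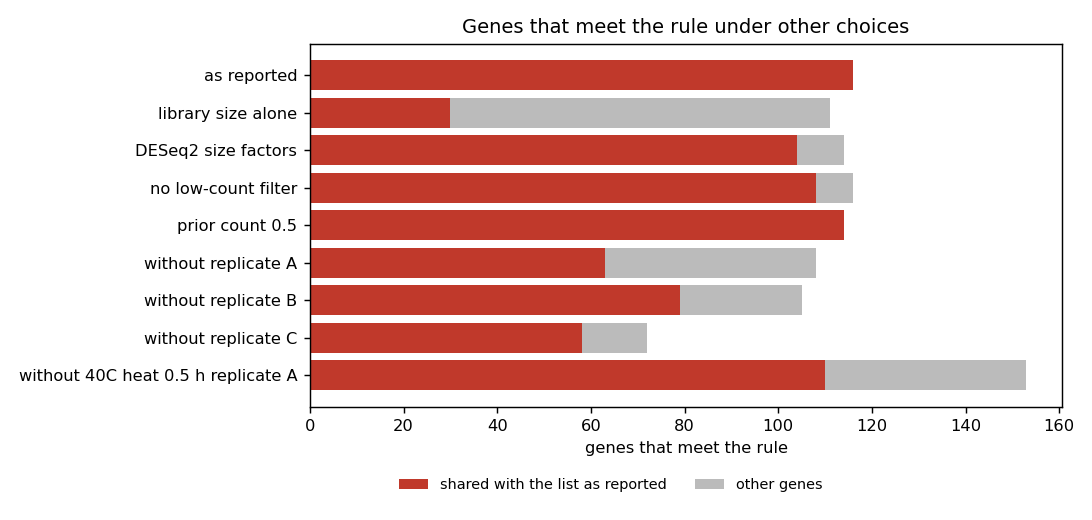
Number of genes that met the rule as reported and under 8 other choices; red, genes shared with the 116, grey, other genes. With library size alone 30 of 111 were shared, with DESeq2 size factors 104 of 114.

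All 116 members matched a gene of the RefSeq table (assembly v5.5, used for names and gene order alone). They were spread over 16 chromosomes, and 2 pairs were direct neighbours: Cre07.g327350 with NUO9 and Cre08.g359700 with RPS9. The correlation of d over the 28 groups was 0.75 in the first pair and 0.22 in the second.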

How the data were processed

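RNA-seq libraries with polyA selection were made from 90 samples, 3 biological replicates in each of 30 groups (15 time points at each of 2 temperatures). Groups were taken from the sample labels. The authors trimmed reads, aligned them with STAR to Chlamydomonas genome v5.6, kept those that mapped to 1 locus and obtained gene counts by HTSeq, with FastQC for quality. For tool versions: not given in the sources used here. Deposited counts are whole reads per gene, not normalised. The authors also deposited TPM, in which the CPM that make 1 TPM, set by the length used per gene, ran from 0.0021 to 13.3 between genes (median 4.46), so TPM were used for the threshold of 1 TPM, for ranking genes to name and for 1 alternative, and never to compare genes.

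Genes with 10 or more reads in fewer than 9 libraries were left out (2200 genes, 0.0076% of reads). Scaling was by TMM in edgeR 4.0.16 under R 4.3.3, and log2 CPM used a prior count of 2. Contrasts with pre-heat and between pre-heat groups were fitted over all 90 libraries with 1 mean per group by edgeR's quasi-likelihood F-test, adjusted over 15541 genes by Benjamini-Hochberg, with DESeq2 1.42.0 as alternative. The test between pre-heat groups was tried on simulated counts modelled on the 6 pre-heat libraries alone. The fit over all 90 libraries was not tried in this way. The labels call the replicates biological; p-values measure the spread between them. Depth per library was 10872030 to 35917831 reads.

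The members and the lists were chosen with earlier results of these data known. Genes were named by rule: the 10 with the smallest largest absolute d, the 10 with the highest pre-heat TPM, up to 4 members by TPM in each list, 5 on each side of the limit, 3 with the highest and 3 with the lowest mean d in heat, and genes in use as internal controls. The lists were made by text patterns over the symbols, descriptions, MapMan terms and Gene Ontology terms in the study's supplementary tables. Those of complex I and of complex III, complex IV and ATP synthase used MapMan terms alone. Promoter motifs were not analysed here, and a gene is not reported here. Alternatives were other scalings, filters, prior counts, limits, levels and left-out libraries.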

Additional observations from a re-analysis of the deposited data

How the results depend on the processing

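The number of genes that met the rule was 116 as reported, and it was 72 to 153 when a replicate letter or replicate A of 40°C heat 0.5 h was left out (72 without replicate C). It was 32 on log2(TPM + 1), none of them among the 116, 31, 256 and 731 with limits of 0.5, 0.7 and 1, 218 and 49 with pre-heat levels of 4 and 6, 1096 with the 35°C groups alone and 185 without the whole 40°C heat 0.5 h group. The last choice and that of the single library were made after seeing the data. With library size alone, DESeq2's size factors, no filter, a prior count of 0.5 or the 40°C groups alone the count was within 1.5 times 116, but library size alone shared 30 genes with it. The cause was not tested.

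The number of members with an adjusted p under 0.05 in any contrast was 115, and 91 to 115 with libraries left out. The comparison of pre-heat groups gave 0 members at adjusted p under 0.05 in every setting run; at unadjusted p it gave 16 without replicate A, 9 without 35°C pre-heat replicate A and 1 with the 6 pre-heat libraries only. Replicate letters were not taken as pairs: the correlations of same-lettered deviations were 0.27, 0.12 and -0.16 between the pre-heat groups, and all 3 letters were over 0.1 in 8 of the 28 contrasts with pre-heat. With the letter within temperature as a replicate block 115 members had a call in a contrast with pre-heat, and with the letter as a replicate block across temperatures the pre-heat comparison gave 0. Of 297 values of 33 named genes under alternatives, 234 moved by no more than the replicate SD and 63 by more. With 3 libraries per group and a within-group SD of up to 0.32, membership near the limit is loosely determined.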
